A study of Mus musculus with 43 samples.

Results

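Polypoid tumors of mice on a high folic acid (FA) diet were compared with non-neoplastic colon epithelium of the same mice. The comparison held 13 of the 43 libraries of the series: 7 polyp libraries (8P) and 6 epithelium libraries (8ND) of the second cohort. Members were chosen by their labels (cohort, diet and tissue) and paired by the mouse number in the title, which gave 6 mice, numbered 1800, 1830, 1841, 1848, 1856 and 1858. Mouse 1856 gave 2 lesions and each other mouse gave 1. The deposited data name the lesions of mouse 1856 in the opposite order to the labels, which were followed here, so which lesion is first is uncertain. The mice were female Swiss Webster animals, with no engineered allele named in the labels or the study's methods. All had eaten chow with 2 mg FA/kg, had received the carcinogen azoxymethane (AOM) at 7 weeks of age, and had drunk 2% dextran sodium sulfate (DSS), which causes colitis, in 4 cycles from 9 weeks. At 11 weeks they were assigned to 8 mg FA/kg chow for 16 weeks, and they were killed at 27 weeks. Polyp and control epithelium therefore shared carcinogen, colitis and diet, and no second-cohort tissue came from an untreated animal. The second cohort also held 6 mice on 0 mg FA/kg with 6 polyp (0P) and 6 epithelium (0ND) libraries, which served as a comparison. Cells were cut from fixed, paraffin-embedded sections by laser, so each library holds whatever cells lay inside the cut area. The study also cut epithelium together with the lamina propria beneath it for some non-dysplastic samples. The titles of the 8ND libraries name only non-neoplastic cells, so these libraries, called epithelium here, may hold lamina propria. The files hold no expression values or cell markers with which the labelled tissue could be checked.

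In mammalian DNA, methyl groups sit mainly on the cytosine of CG pairs. Most CG-rich stretches at gene starts are free of methylation in normal tissue, while most CG pairs in the rest of the genome carry it. Tumors of the colon are known for a loss of methylation over much of the genome together with gains at some CG-rich stretches. Folic acid is a source of the methyl groups that DNA methyltransferases pass on to DNA.

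Methylation was measured by DREAM, in which DNA is cut wherever CCCGGG occurs, first by the enzyme SmaI, which cuts only unmethylated copies, and then by XmaI, which cuts the rest. The ends left by the 2 enzymes differ, so each sequenced read counts 1 copy as methylated or unmethylated. The level of a site is the percent of its reads that were methylated, after the authors' adjustment of each library with spiked DNA standards. Of 173449 sites, 9969 had at least 20 reads in each of the 13 libraries and were compared. They were put into classes by their mean level in the 18 epithelium libraries of the first cohort, which are not part of the comparison: 7582 unmethylated sites (under 10%), 1288 intermediate sites (10% to under 70%), 1087 methylated sites (70% or more) and 12 with too few reads for a class. The first-cohort libraries came from mice on 0, 2 or 8 mg FA/kg chow, so the classes do not rest on 8 mg FA alone. Of the 6 mice, 5 also gave a first-cohort library. The median site had 204 to 817 reads in the polyp libraries and 84 to 316 in the epithelium libraries.

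Tissue was not the only thing that separated the libraries. The spiked standards are the same DNA in each library and should read alike, yet standard Sla374_1 read 98.1% to 98.7% in 8P and 98.4% to 98.8% in 0P, against 86.7% to 93.5% in 29 of the 30 epithelium libraries of the series. The remaining epithelium library, 8ND of mouse 1856, read 98.8%. Of the 18 standards, 6 set the 7 polyp libraries apart from the other 5 8ND libraries, and in each of these 6 the 8ND library of mouse 1856 lay nearer to the polyps. That library also had 48630 sites with at least 20 reads, among the 47798 to 54855 of 8P and above the 15893 to 21585 of the other 8ND libraries, and its label writes the mouse number in the form used for polyps. In 12 of the 13 libraries, tissue and this split of the libraries coincide and cannot be told apart. Mouse 1856 is the exception, as its epithelium and both its lesions fall on the same side, and its values are given beside the main results. Whether that library holds non-neoplastic cells, as its title says, was not tested, and its use as a within-mouse comparison depends on the title. The epithelium libraries also held more sites at the ends of the scale: 0.543% to 27.0% of intermediate sites read exactly 0% or 100% in 8ND, against 0% to 0.699% in 8P. Of methylated sites, 8.28% to 50.1% read exactly 100% in 8ND and 1.29% to 7.82% in 8P. Of unmethylated sites, 83.1% to 95.8% read exactly 0% in 8ND and 59.1% to 81.5% in 8P. The part of this in the class differences was not tested.

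Methylated sites were lower in polyps. Their mean level was 85.6% ± 1.65 (SD, n = 6) in 8ND, with a lowest, median and highest library of 83.7%, 85.4% and 88.5%. In 8P it was 80.03% ± 2.29 (SD, n = 7), with 76.5%, 80.2% and 83.1%. The highest polyp lay below the lowest epithelium library, so the groups did not overlap. Polyps differed from epithelium by -5.59 percentage points (exact permutation p = 0.00117, two-sided, the smallest that 1716 assignments allow, and 0.0035 adjusted over the 3 classes). Within mice, polyp minus epithelium was negative in 6 of 6 and ran from -9.12 points in mouse 1800 to -1.48 points in mouse 1830 (exact sign-flip p = 0.03125, the smallest that 6 mice allow, and 0.0938 adjusted over the 3 classes). Raw percentages gave -6.25 points (exact permutation p = 0.00583), and the groups then overlapped: the lesions of mice 1830 (81.2%) and 1858 (78.4%) lay above the lowest epithelium library, that of mouse 1841 (78.3%).

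In mouse 1856, where all 3 libraries have like standards, the epithelium read 83.7% and its lesions 80.2% and 82.2%, a mean difference of -2.47 points. This was the second smallest of the 6 within-mouse differences. Leaving this epithelium library out gave -5.98 points (exact permutation p = 0.00253, the smallest for 7 against 5). A first-cohort epithelium library was present for 5 of the mice, and against it the lesions were lower at methylated sites in 5 of 5, by -2.63 points in mouse 1858 to -8.98 points in mouse 1848. Those 5 libraries read Sla374_1 at 86.7% to 90.1%, as did other epithelium, but standard La168_1 at 8.33% to 10.03%, against 3.11% to 4.02% in the polyps and 0.960% to 3.36% in the 5 other 8ND libraries. They also helped to set the classes. They thus differ in their standards from the polyps and from second-cohort epithelium, and tissue and library cannot be told apart in this comparison either.

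Unmethylated sites were slightly higher in polyps, with 1 exception that reversed the order. Their mean level was 0.806% ± 0.0925 (SD, n = 7) in 8P, with a lowest, median and highest library of 0.639%, 0.793% and 0.918%. In 8ND it was 0.525% ± 0.309 (SD, n = 6), with 0.270%, 0.473% and 1.12%. The highest of all 13 values was the epithelium of mouse 1856, above both of its own lesions (0.780% and 0.885%). The difference was 0.281 points (exact permutation p = 0.042, and 0.0629 adjusted over the 3 classes), and it was positive in 5 of 6 mice (exact sign-flip p = 0.0938). Without the 8ND library of mouse 1856 it was 0.400 points (exact permutation p = 0.00253). In the first cohort, epithelium of 5 of these mice read 0.608% to 0.750% over the same class of sites. The lowest of these, mouse 1841, lay below all the polyps, and the others lay among them. Against this library of their own mouse the lesions were higher in all 5, by 0.0670 points in mouse 1830 to 0.309 points in mouse 1841. In mouse 1856 the value was 0.150 points. The mean gain did not pass the adjusted threshold. Standard La168_2, which lay near the low end of the scale, was ordered in the same way. Its median was 3.73% in 8P and 2.63% in the other 5 8ND libraries, with overlapping ranges. In 8ND of mouse 1856 it read 4.81%, the highest of the 13. First-cohort epithelium of the 5 mice went the other way, with La168_2 at 10.37% to 11.02%. Whether the shift of this standard has a part in the difference at unmethylated sites was not tested.

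Intermediate sites showed no mean difference past the test. Their mean was 32.9% ± 2.91 (SD, n = 7) in 8P and 33.4% ± 3.78 (SD, n = 6) in 8ND, a difference of -0.503 points (exact permutation p = 0.790). The sign of this small difference changed without the 8ND library of mouse 1856 (0.489 points). Polyps were lower in 3 of the mice and higher in the other 3, with differences from -4.27 to 3.48 points. In mouse 1856 the epithelium read 38.3% and the lesions 31.7% and 36.5%.

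**Figure D1:**
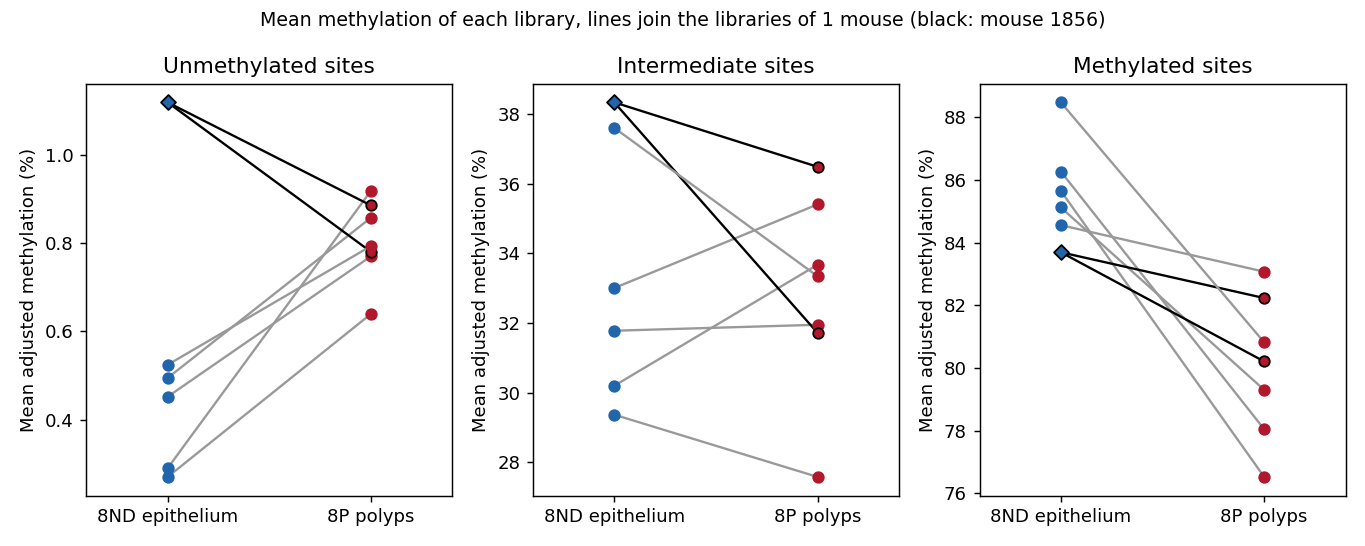
Mean adjusted methylation (percent) over unmethylated, intermediate and methylated sites, 1 point for each library, with 8ND in blue and 8P in red. Lines join the libraries of 1 mouse, and black lines and the diamond mark mouse 1856, whose epithelium lies at 1.12%, 38.3% and 83.7%, while in the methylated panel all 7 polyps lie below all 6 epithelium libraries.

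Across finer classes the difference followed the starting level of the site. Over 8232 sites also covered in 0P and 0ND, the 5865 sites that started under 2% were higher in polyps by 0.111 ± 0.151 points (SD over 6 mice), and the 537 sites at 2% to 10% by 1.81 ± 1.74 points. The values passed through zero between 20% and 40%. Sites at 80% to 90% were lower by -7.85 ± 4.27 points, the largest loss of the 12 bins, and sites at 95% or more by -3.24 ± 1.79 points. In each of the 5 bins from 60% upwards the polyps were lower in 6 of 6 mice. Mouse 1856 alone was negative in each of the 12 bins, from -0.182 points under 2% to -6.01 points at 50% to 60%. So the losses at high levels had the same direction in this mouse, and the rise at low levels did not.

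**Figure D2:**
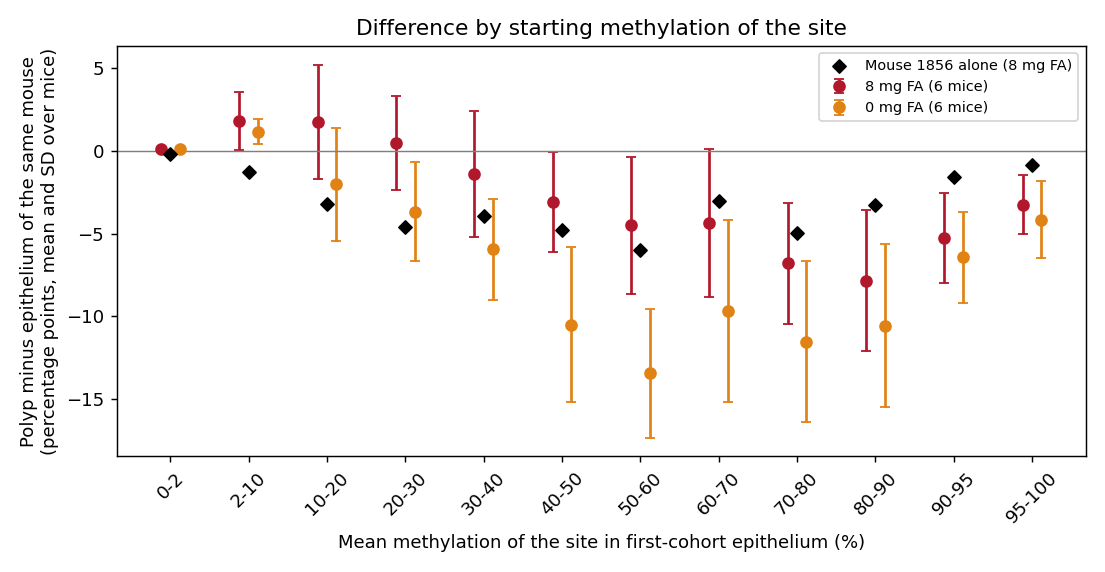
Polyp minus epithelium of the same mouse, in percentage points, by the mean level of the site in first-cohort epithelium (percent), as mean and SD over 6 mice on 8 mg FA (red) and 6 on 0 mg FA (orange), with mouse 1856 alone in black. Red points run from 1.81 points at 2% to 10% down to -7.85 points at 80% to 90%, orange points reach -13.5 points at 50% to 60%, and the black points are all below 0.

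A site was called when its means lay over 5 points apart and an equal-variance test of the 2 groups, two-sided and without adjustment, gave p under 0.05. By this criterion 511 of the 9969 sites were called (5.13%), 349 lower in polyps (3.5%) and 162 higher (1.63%). With Benjamini-Hochberg adjustment 2 of the 511 calls were left, so the calls describe groups of sites, and a single call carries little weight. Both of the 2 were losses at methylated sites. At chromosome 15, position 87564630, 8P read 62.1% and 8ND 92.1%, and at chromosome 19, position 7950508, 8P read 74.4% and 8ND 94.2% (adjusted p = 0.0306 for both, Benjamini-Hochberg over the tests of all sites). The second of these was named after its values were seen.

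Losses and gains fell on different classes of sites. Of the 1087 methylated sites, 254 were called lower (23.4%) and 9 higher (0.828%), against 3.5% and 1.63% over all sites. The 3.5% counts 7582 unmethylated sites, most of which start too near 0 to lose over 5 points. It is therefore low as a background for losses in the other classes. The called losses had a median of -13.5 points, and 49 of the 254 exceeded 20 points. Over all methylated sites, called or not, 78.7% were lower in polyps and the median difference was -5.14 points. In 6 of 6 mice the polyp was below its own epithelium at 167 methylated sites (15.4%) and above it at 5 (0.460%).

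Of the 7582 unmethylated sites, 55 were called higher (0.725%) and 0 lower. Sites that start near 0 have no room for a loss of over 5 points, so the second count is set by the class. The median called gain was 8.20 points and the largest 18.1 points, and 11 of the 55 gained over 10 points. At 5 of the 55 no methylated read was seen in any of the 6 epithelium libraries. The share of called gains was below the 1.63% over all sites, and 61.2% of all unmethylated sites had a higher mean in polyps.

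Of the 1288 intermediate sites, 96 were called higher (7.45%) and 95 lower (7.38%), against 1.63% and 3.5% over all sites. The share called lower was below the 23.4% at methylated sites. Its excess over 3.5% is partly set by the unmethylated sites counted there, which have little room for a loss. The median gain was 15.6 points and the median loss -18.7 points, larger than the median gain at unmethylated and the median loss at methylated sites. The near-zero mean difference of the class therefore held called changes in both directions in like numbers.

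Few called sites separated all polyps from all epithelium. Over all 9969 sites, the groups lay apart with polyps lower at 40 (0.401%) and with polyps higher at 27 (0.271%). At methylated sites this held for 29 of the 254 called losses, and over the whole class polyps lay below at 32 sites (2.94%). At the called losses of methylated sites a median of 4 of the 7 lesions lay beyond every epithelium library, and at 51 of the 254 it was 2 lesions or fewer. At the called gains of unmethylated sites the median was 5 of 7, with all 7 at 8 of the 55.

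Neighbours of lost sites were often lost too. Within 1 kb of the called methylated losses lay 207 other compared methylated sites, of which 185 were lower in polyps (89.4%, against 78.7% over the class) and 88 were themselves called lower (42.5%, against 23.4%). Around the called gains of unmethylated sites, 45 of 52 neighbours of the class were higher (86.5%, against 61.2%) and 8 were called (15.4%, against 0.725%). Neighbouring sites can share a fragment and its reads, and they are not independent of each other.

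The losses were spread over the genome. Each of the 19 autosomes had a lower mean at methylated sites in polyps, by -3.74 to -8.49 points, with 12.2% to 35.2% of 16 to 97 methylated sites called lower. Chromosome X differed by -2.64 points at 20 methylated sites, of which 3 were called lower. Of its 146 intermediate sites 12 were called higher and 1 lower, with a mean difference of 2.46 points. Its 16 unmethylated sites were higher by 3.85 points, with 2 called. By the number of other CCCGGG sites within 1 kb, called losses made up 23.8% of 1029 methylated sites with 1 to 3 others and 12.2% of 41 with 4 or more. For gains at unmethylated sites the shares were 0.900% of 5224 and 0.341% of 2346. At intermediate sites with 4 or more others, 9 of 75 were called higher and 1 lower. The files give positions on mouse build mm9 and no genes, and no mm9 annotation was used, so sites are named by chromosome and position and their genes, exons or repeats are not analysed here.

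The sites named next were those with the largest differences among the called sites whose groups did not overlap, by a fixed rule that used this same comparison, so their values are a description. They show how the 13 libraries spread at the strongest changes. The first 8 are losses at methylated sites.

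At chromosome 19, position 45789634, the 7 polyps read 29.9% to 59.3% (median 47.8%) and the 6 epithelium libraries 67.8% to 87.0% (median 81.3%), a difference of -35.8 points. At chromosome 2, position 102580112, the polyps were tightly grouped at 45.5% to 51.1% (median 48.7%) and the epithelium ran from 59.4% to 100% (median 75.8%), a difference of -30.8 points. At chromosome 15, position 87564630, the polyps read 51.2% to 71.0% (median 59.6%) and the epithelium 83.7% to 100% (median 93.5%), a difference of -30.0 points. At these 3 sites the epithelium of mouse 1856 read 72.5%, 70.4% and 92.7%. Its lesions read 31.9% and 59.3%, 48.7% and 45.5%, and 68.3% and 59.6%. The choice of non-overlapping sites fixes this direction in each mouse.

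At chromosome 4, position 135070912, the polyps read 42.9% to 71.1% (median 56.6%) and the epithelium 72.8% to 100% (median 88.9%), with only 20 reads in the shallowest library. At chromosome 2, position 144750357, they read 42.7% to 68.9% (median 55.9%) and 75.7% to 100% (median 83.0%). At chromosome 17, position 25614784, they read 55.1% to 72.9% (median 58.2%) and 76.1% to 100% (median 90.1%), and a second qualifying loss lay within 1 kb. In these 3 sites the margin between the lowest epithelium library and the highest polyp was narrow, while the means differed by -29.2, -28.5 and -26.0 points.

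At chromosome 3, position 95739555, the polyps read 41.5% to 56.5% (median 50.2%) and the epithelium 57.2% to 83.0% (median 76.0%), a difference of -25.1 points. At chromosome 2, position 172963650, they read 30.7% to 52.5% (median 45.6%) and 54.8% to 89.2% (median 62.5%), a difference of -24.9 points. At the first of these the lowest epithelium library was that of mouse 1856, at 57.2%, just above its own lesions at 51.4% and 54.3%. With raw percentages all 8 were still called, and at 6 of the 8 the groups still lay apart.

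The 4 named losses at intermediate sites were of like size. At chromosome 4, position 132827052, the polyps read 11.4% to 30.4% (median 29.4%) and the epithelium 52.6% to 100% (median 70.3%), the largest difference among all named sites at -47.7 points. Epithelium libraries there had as few as 22 reads, among them the library at 100% (mouse 1830). At chromosome 9, position 61866497, they read 10.7% to 35.1% (median 23.9%) and 35.9% to 100% (median 42.0%), and the highest value, 8ND of mouse 1830 at 100%, stood apart from the other 5. At chromosome 12, position 77673722, they read 33.3% to 48.8% (median 42.0%) and 55.8% to 83.1% (median 63.3%). At chromosome 10, position 17598176, they read 16.2% to 29.4% (median 21.3%) and 33.3% to 55.0% (median 49.5%), and the low epithelium value of 33.3% was mouse 1856. In mouse 1856 both lesions lay below the epithelium at each of the 4 sites, which the choice of non-overlapping sites requires.

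**Figure D3:**
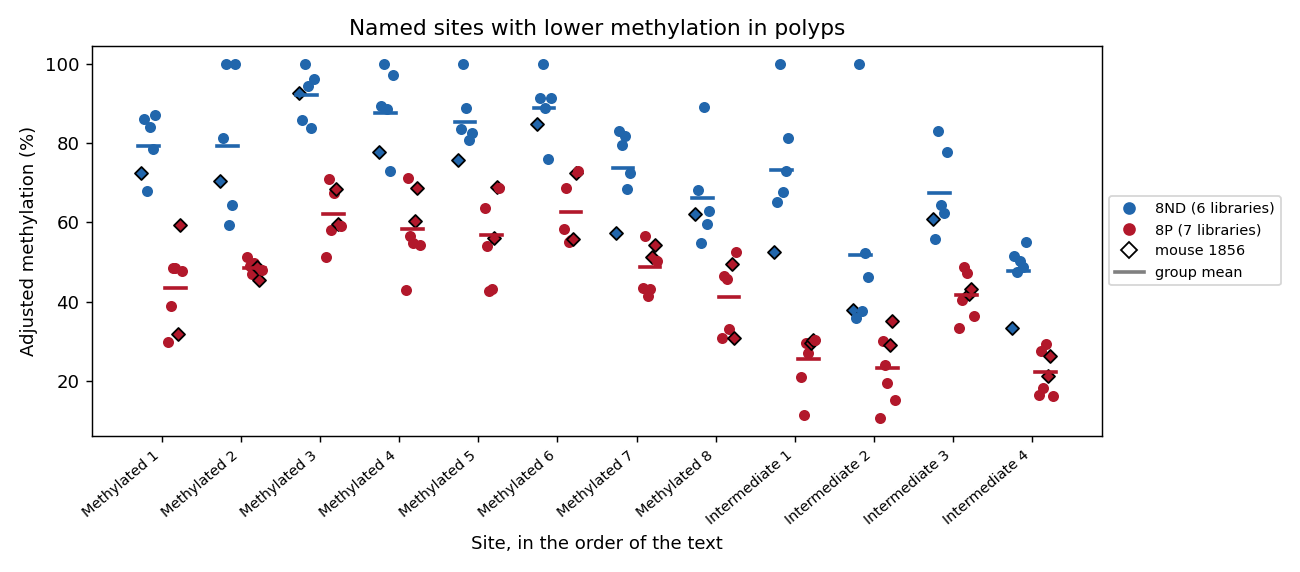
Adjusted methylation (percent) at the 8 named losses of methylated sites and the 4 of intermediate sites, 1 point for each library (8ND blue, 8P red, diamonds mouse 1856), with bars at the group means. All polyps lie below all epithelium libraries at each site because sites were chosen that way, and the gap of the means runs from -47.7 points at Intermediate 1 to -24.9 points at Methylated 8.

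The 8 named gains at unmethylated sites were small and uneven among lesions. At chromosome 3, position 103380496, the polyps read 2.09% to 29.1% (median 11.3%) and the epithelium 0% to 1.32% (median 0%), the largest such gain at 12.9 points, where as few as 118 reads in a library at 0 allow up to 2.54%. At chromosome 15, position 54577799, they read 6.59% to 29.7% (median 10.6%) and 1.92% to 3.42% (median 2.66%), with at least 225 reads in each library. At chromosome 16, position 35156214, they read 5.46% to 22.4% (median 9.05%) and 0% to 5.22% (median 0.855%), with as few as 29 reads in a library at 0, which allow up to 10.3%. These 3 were the only named gains of this class with a mean difference over 10 points, and at each the highest lesion was over 2 times the median lesion.

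At chromosome 7, position 77479744, the polyps read 3.74% to 26.1% (median 6.86%) and 5 of the 6 epithelium libraries had no methylated read, where as few as 63 reads allow up to 4.76%. At chromosome 14, position 109311560, the polyps read 1.11% to 19.7% (median 8.94%) and all 6 epithelium libraries were at 0, where 75 to 258 reads allow up to 4.00% to 1.16% in a library. At chromosome 10, position 79257649, the polyps read 2.60% to 13.4% (median 6.33%) and the epithelium 0% to 1.58%, with as few as 42 reads in a library at 0, which allow up to 7.14%. At each of these 3 sites the lowest lesions were within the limit of the shallowest epithelium library at 0.

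At chromosome 2, position 42508000, the polyps read 1.84% to 16.5% (median 3.58%) and all 6 epithelium libraries were at 0, where 107 to 290 reads allow up to 2.80% to 1.03%. At chromosome 17, position 74154480, the polyps read 0.610% to 14.0% (median 6.02%) and the epithelium was again at 0 throughout, but with as few as 24 reads, which allow up to 12.5%. At both sites the lowest lesions are again within the limit, as they are at the sites on chromosomes 3 and 16. At 7 of the 8 named gains the separation of the groups was thus not detectable at the depth of the shallowest epithelium library at 0, and at chromosome 15, position 54577799, all 6 epithelium libraries had methylated reads. With raw percentages 6 of the 8 gains were still called. The epithelium of mouse 1856 was at 0% to 2.50% in these 8 sites and its lesions at 3.30% to 25.8%, the direction of the other mice, which the choice of non-overlapping sites requires.

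Only 3 gains at intermediate sites qualified. At chromosome 11, position 43589375, the polyps read 15.3% to 63.1% (median 23.5%) and the epithelium 0% to 14.9% (median 2.44%), and 1 lesion, 8P of mouse 1858 at 63.1%, stood far above the others. At chromosome 8, position 124037272, they read 19.0% to 44.8% (median 28.5%) and 0% to 16.98% (median 7.96%). At chromosome 7, position 105273314, they read 17.4% to 36.0% (median 19.6%) and 0% to 16.5% (median 14.5%), and the value of 0% was 8ND of mouse 1858 alone. In mouse 1856 the epithelium read 14.9%, 16.98% and 16.1% at these 3 sites, the highest of the 8ND libraries at the first 2 and below 8ND of mice 1830 and 1841 at the last, and 1 of its 2 lesions was the lowest polyp at each. One gain at a methylated site also separated the groups, chromosome 1, position 40112418, with 87.5% to 97.6% in polyps and 47.8% to 81.0% in epithelium. It fell outside the rule for naming and is given because it was the single one of its kind.

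**Figure D4:**
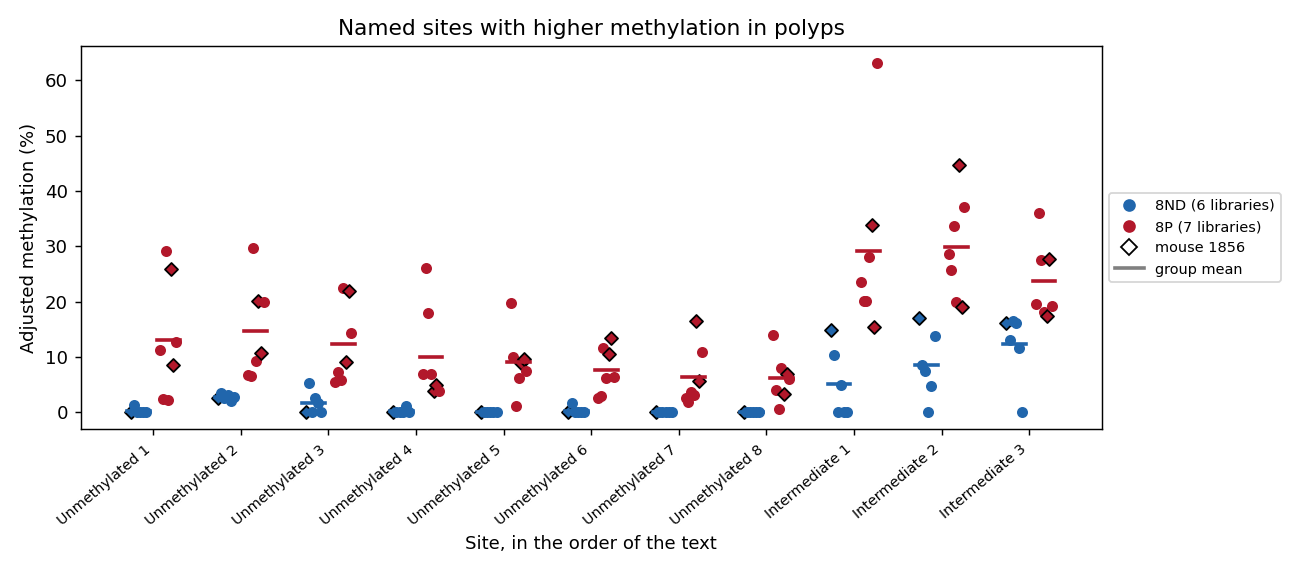
Adjusted methylation (percent) at the 8 named gains of unmethylated sites and the 3 of intermediate sites, drawn as in the plot of named losses. Epithelium libraries sit at or near 0% at the unmethylated sites, and lesions spread from 0.610% to 29.7%.

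The calls were then made again with each library left out in turn, and the level of the library left out was read at the sites so called. Left-out libraries took no part in choosing those sites, but other libraries of the same mouse did. For the epithelium of mouse 1856 these were its 2 lesions. The level is given on a scale on which the mean of the 8ND libraries used is 0 and that of the 8P libraries used is 1. At losses of methylated sites, the other 5 8ND libraries lay at 0.0367 to 0.349 and the 7 lesions at 0.609 to 1.20. The 8ND library of mouse 1856 lay at 0.726, among the lesions: at 283 losses called without it, it read 80.2%, against 91.3% in the other 5 and 75.9% in 8P. At losses of intermediate sites it lay at 0.677, again among the lesions (0.618 to 1.31) and above the other 8ND libraries (-0.136 to 0.565).

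At gains it lay beyond the mean of the polyps. At 88 gains of unmethylated sites called without it, the epithelium of mouse 1856 read 11.6%, against 1.63% in the other 5 8ND libraries and 10.2% in 8P, a position of 1.16. At 163 gains of intermediate sites it read 39.2%, against 19.6% and 37.4%, a position of 1.10. The other left-out 8ND libraries lay at 0.0250 to 0.413 and at -0.0368 to 0.653. Without this library, polyps were called higher at 269 of the 9969 sites (2.7%) and lower at 387 (3.88%). The 1 epithelium library with standards like those of the polyps thus lay among the polyps, or above them, at the sites called without it. The part of the library split in the calls of the other 5 mice was not tested.

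**Figure D5:**
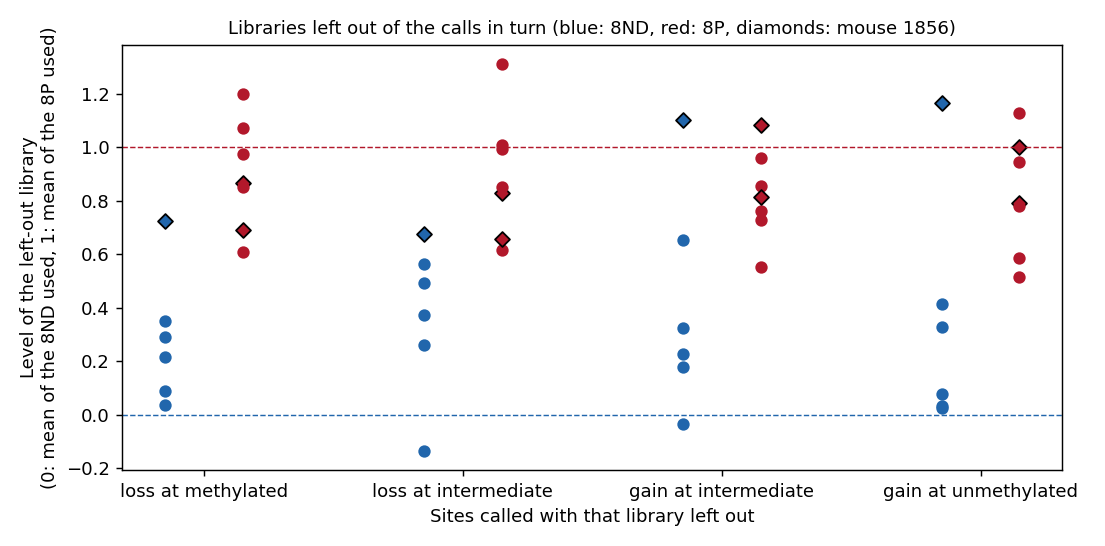
Level of each library at the sites called with that library left out, on a scale with the mean of the 8ND libraries used at 0 and of the 8P libraries used at 1, for 4 kinds of call. Blue points are 8ND and red points 8P libraries, and diamonds mark mouse 1856, whose epithelium lies at 0.726, 0.677, 1.10 and 1.16, among or above the lesions in each column.

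The epithelium of mouse 1856 was also sequenced in the first cohort, in a library whose standards were unlike both second-cohort sets (La168_1 at 8.33%, an odds factor of 3.33). At 281 of the methylated losses called without the second-cohort library, the first-cohort epithelium read 88.0%, the second-cohort epithelium 80.3% and the lesions 77.2%. At 87 of the unmethylated gains they read 5.24%, 11.7% and 11.6%. At the losses the lesions thus differed from first-cohort epithelium by -10.8 points and the 2 epithelium libraries of this mouse from each other by -7.71 points. At the gains the same differences were 6.32 and 6.49 points. The other 4 mice with both libraries show how far such pairs differ. At the methylated losses called without each, second-cohort minus first-cohort epithelium was -3.36 points in mouse 1830 and -4.36 in mouse 1848. It was 7.14 in mouse 1841 and 5.81 in mouse 1858, opposite in sign to the -7.71 points of mouse 1856. All 4 gaps were smaller in size than that of mouse 1856. At the gains of unmethylated sites second-cohort minus first-cohort epithelium was -0.760 to -3.41 points in these 4 mice, opposite in sign to mouse 1856.

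Within mouse 1856 alone, many more sites could be read. Of 2552 methylated sites with at least 20 reads in its 3 second-cohort libraries, both lesions were more than 10 points below the epithelium at 300 (11.8%) and more than 10 points above it at 233 (9.13%). At intermediate sites the counts were 675 and 290 of 2895. At unmethylated sites they were 267 and 31 of 13223, with the epithelium the higher of the 3. With at least 100 reads, 158 of 1635 methylated sites were lower in both lesions and 118 higher. Losses outnumbered gains in this mouse at every class, by a narrow margin at methylated sites, and with 1 epithelium library these counts have no replicate check.

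Each library was next compared with an outside reference, the 6 0ND libraries. A loss was a methylated or intermediate site more than 10 points below the lowest 0ND library, and a gain an unmethylated site more than 10 points above the highest. Polyps had 179, 298 and 483 losses (lowest, median and highest of 7) among 2272 sites, and 8ND libraries had 138, 176 and 376. The difference of the means, 86.6 sites, did not pass the test (exact permutation p = 0.143), and 8ND of mouse 1830 held the 376. Without that library the difference was 121 sites (exact permutation p = 0.0177). At methylated sites alone, polyps had 104, 174 and 271 losses of 1037 and 8ND libraries 41, 87 and 170 (exact permutation p = 0.0186, and exact sign-flip p = 0.0938 within mice). In mouse 1856 the epithelium had 108 and the lesions 174 and 126.

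Gains against this reference were fewer on average in polyps, with a difference that did not pass the test. Among 7356 unmethylated sites the lesions had 15 to 37 gains (median 28) and the epithelium libraries 1 to 103 (median 40), with 103 in 8ND of mouse 1856 (exact permutation p = 0.382). The difference of the means was -14.9 sites, and -2.43 sites without that library (exact permutation p = 0.828). Both the lowest and the highest counts were thus epithelium libraries. Each of the 3 highest epithelium libraries (54, 57 and 103) had more such gains than any lesion.

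The same sites were read in polyps and epithelium on 0 mg FA, from other mice. Those libraries have the same split of the standards between tissues as 8P and the 5 other 8ND libraries. Over 8232 sites covered in all 25 libraries, 364 were called lower in 0P (4.42%) and 46 higher (0.559%). Of the methylated losses on 8 mg FA, 198 could be read on 0 mg FA, where 186 were lower in 0P (93.9%, against 82.0% of all methylated sites) and 60 were called (30.3%, against 17.5%). Of 80 intermediate losses, 78 were lower and 48 called (60%, against 20.8% of the class). Of 44 unmethylated gains 36 were higher in 0P (81.8%, against 28.8% of the class), and 1 was called higher (2.27%, against 0.172%) and 1 lower. Over the whole unmethylated class the median difference on 0 mg FA was 0. Sites without a difference count as not higher, which lowers the 28.8%. Of 67 intermediate gains 49 were higher (73.1%, against 31.4%) and 7 were called (10.4%, against 2.57%).

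Of the named sites, 8 of 8 methylated and 4 of 4 intermediate losses were lower in 0P, and 5 and 3 of them were called there. At chromosome 19, position 45789634, 0P read 2.65% to 79.7% and 0ND 81.4% to 97.1%. None of the 8 named unmethylated gains was called on 0 mg FA, and 7 of 8 were higher in 0P. By class, polyp minus epithelium on 0 mg FA was -8.64 ± 3.80 points at methylated sites and -6.42 ± 2.74 points at intermediate sites (SD, n = 6 mice), lower in 6 of 6 mice for both (exact sign-flip p = 0.03125, the smallest possible).

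On these shared sites the changes on 8 mg FA were -6.12 ± 3.18 points at methylated, -1.16 ± 3.06 points at intermediate and 0.254 ± 0.282 points at unmethylated sites (SD, n = 6 mice). The change at intermediate sites thus differed between diets by 5.25 points, with less loss on 8 mg FA (exact permutation p = 0.0173 over 924 assignments of 12 mice, and 0.0519 adjusted over the 3 classes). Methylated sites differed by 2.52 points (exact permutation p = 0.236) and unmethylated sites by 0.0220 points (exact permutation p = 0.879). The mean of intermediate sites was 32.2% in 8P and 29.9% in 0P, and 33.2% in 8ND and 36.3% in 0ND. No class passed the adjusted threshold for a difference between diets, and with raw percentages the intermediate value was 3.97 points (exact permutation p = 0.175).

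The lesions of 1 mouse were no more alike than lesions of different mice. Over all compared sites, the 2 lesions of mouse 1856 had a mean absolute difference of 3.16 points, within the 2.44 to 3.53 points of the 20 pairs of lesions from different mice and the 15th smallest of all 21. At methylated sites the value was 8.80 points, against 7.34 to 10.7 points. Epithelium libraries spread further, at 2.40 to 5.76 points over 15 pairs, and they were also the shallower libraries.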

How the data were processed

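DNA methylation was measured by DREAM in laser-microdissected colon cells. Per the labels, reads were processed with Bowtie2 and SAMtools on mm9, while the study's methods name a custom script and the human genome. The authors deposited counts of methylated, unmethylated and total reads for 173449 sites and 18 standards, the raw percent, and a percent adjusted with the standards. It was checked that the adjustment multiplies the raw odds by 1 factor per library (1.16 to 1.52 in 8P, 1.06 to 1.97 in 8ND). Reads on sites ranged from 4892730 to 13960168 in 8P and from 1774213 to 6876845 in 8ND. Limits given for a count of 0 are 3 counts of the total and cover counting error only, since reads without molecular identifiers are not independent molecules.

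Groups came from the labels. Sites needed 20 reads in each library compared. The study's criterion (unadjusted p under 0.05 and over 5 points) was applied with an equal-variance test of 2 groups, two-sided. The coverage minimum and equal variances were set here. Class means and per-library counts were tested by exact permutation over libraries or sign flips within mice, all two-sided. Scripts ran in Python 3.11.15 (pandas 2.3.3, scipy 1.17.1, numpy 2.4.6), and limma 3.58.1 in R 4.3.3 served as an alternative. The per-site test was tested on simulated data. It called 76 of 100 methylated sites lowered by 15 points and 98 of 100 unmethylated sites raised by 15 points. Of 9769 unchanged sites it called 125 (1.28%). The simulated libraries were drawn independently and without the split of the standards, so this share is no background for the calls in the data. Named sites were the 8 largest losses at methylated, the 8 largest gains at unmethylated and up to 4 of each at intermediate sites, among called sites whose groups did not overlap, 1 per 1 kb and none from chromosome 18. Members, classes and rules were chosen with earlier results of these data known. Pairs of tissues come from 1 animal by its number in the title. Deviations from the group mean correlated over 0.1 in 1 of 7 same-mouse pairs (mouse 1856, 0.339). Of 35 pairs from different mice 0 did so, and the highest was 0.0784. The other same-mouse pairs did not pass 0.1, so their pairing rests on the titles. Nothing in the labels says how many sections or cuts made a library. Alternatives added after seeing the data were the level of each left-out library, the first-cohort epithelium of the same mice, and mouse 1856 alone. Repeat and unique sequences, and genes at the sites, are not analysed here.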

Additional observations from a re-analysis of the deposited data

Results flagged for a closer look

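Values were compared with the rest of their own group (6 or 7 libraries) by Dixon's criterion in 70 sets of values, of which chance flags about 3.5, and 12 were flagged. Some sets are named sites, chosen by these same values, and 3 flags come from sites with 5 libraries at 0. The 12 are therefore not read against the 3.5. The 8ND library of mouse 1856 stood above the other epithelium libraries in its mean at unmethylated sites (1.12%, next 0.524%) and in its number of sites with at least 20 reads (48630, next 21585), and below them at chromosome 10, position 17598176 (33.3%, next 47.6%). The 8ND library of mouse 1830 had the most losses against the 0ND reference (376, next 223) and the highest value at chromosome 9, position 61866497 (100%, next 52.4%). The odds factor of the adjustment was highest in 8ND of mouse 1841 (1.97, next 1.37), and the lesion of mouse 1856 labelled as the first had the largest share of reads on standards (40.3%, next 21.0%).

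At single sites, 8P of mouse 1858 stood apart at chromosome 11, position 43589375 (63.1%, next 33.9%), and 8ND of mouse 1858 at chromosome 7, position 105273314 (0%, next 11.7%). At 3 named gains a single 8ND library was above 0 while the other 5 were at 0: mouse 1800 at chromosome 10, position 79257649 (1.58%) and at chromosome 3, position 103380496 (1.32%), and mouse 1848 at chromosome 7, position 77479744 (1.03%). With the other 5 at 0, any value above 0 is flagged by this criterion.

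The change from epithelium to polyp at intermediate sites differed between 8 and 0 mg FA by 5.25 points (exact permutation p = 0.0173, 0.0519 adjusted over the 3 classes), from -6.42 points on 0 mg FA, lower in 6 of 6 mice, to -1.16 points on 8 mg FA, lower in 3 of 6.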

How the results depend on the processing

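Across the settings tried, the difference at methylated sites was negative each time, at -5.17 to -8.43 points over 13 alternatives and -5.01 to -6.10 points with each library left out. With the mouse as a replicate block it was -5.79 points (exact sign-flip p = 0.03125, the smallest that 6 mice allow). Its p adjusted over the 3 classes was then 0.0938, against 0.0035 by permutation of libraries. With 6 mice, 1 class alone at the smallest p cannot pass the adjusted threshold, so this change does not measure a weaker difference. The block did end the call of methylated losses counted against the 0ND reference, given above. It also ended the call of the mean at unmethylated sites, which was 0.277 points. That mean was the same with both lesions of mouse 1856 averaged (exact permutation or sign-flip p = 0.0628 to 0.0938 for the 2 settings).

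The unadjusted call of that mean was also lost with raw percentages (0.215 points), without the 3 8ND libraries that had over 8% of their reads on 100 sites (mice 1830, 1848 and 1858, 0.247 points), with class limits of 20% and 50% (0.344 points) and with the median over sites (0 points). Leaving out each library gave 0.230 to 0.400 points, and the call was kept without 8ND of mouse 1856 and without 8P of mouse 1800 (0.309 points, exact permutation p = 0.0368) and lost in the other 11 fits. The mean at intermediate sites changed sign to 0.489 points without 8ND of mouse 1856, to 0.246 points without the 3 libraries and to 0.224 points with limits of 20% and 50%, and ran from -1.31 to 0.489 points with each library left out.

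Counts of calls mostly stayed within 1.5 times. With Benjamini-Hochberg adjustment, called sites fell to 0.0201% of all sites (2 sites, against 768 with an unadjusted p under 0.05), losses to 0.184% of methylated and 0% of intermediate sites, and gains to 0% at both other classes. Adjusted calls numbered 5 with limma, 1 with limma and the mouse as a block, and 0 with a quasi-binomial logistic model. Gains called at unmethylated sites were 1.16% without 8ND of mouse 1856, 0.237% without the 3 libraries, 0.409% with the quasi-binomial model, 1.10% with classes from the 8ND mean and 0.354% with class limits of 5% and 80%, and 0.528% to 1.16% with each library left out. Gains at intermediate sites were 12.7% without 8ND of mouse 1856, and 6.06% to 12.7% with each library left out. Losses were 13.9% of methylated sites without the 3 libraries and 4.89% of intermediate sites with each site drawn down to 20 reads. The 3 libraries, of mice 1830, 1848 and 1858, also had the largest shares of methylated sites at exactly 100% (50.1%, 21.3% and 38.5%).

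The excess of losses against the 0ND reference passed its test without the 3 libraries (126 sites) and with at least 50 reads (43.7 sites, among fewer sites), and ran from 55 to 121 sites with each library left out, the highest without 8ND of mouse 1830. The difference between diets at intermediate sites was 3.97 points with raw percentages, no longer past the threshold. At unmethylated sites it changed sign, to -0.0464 points with raw percentages, -0.0414 points without mouse 1841 and -0.00815 points with limits of 5% and 80%. Named sites were chosen for groups that do not overlap, so their direction under other settings is no sign of stability. Except where fewer sites or libraries entered by construction, the cause was not tested. Depth limits the epithelium most: single sites there rest on as few as 20 reads.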

Other observations

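The 9 methylated sites called higher in polyps were few beside 254 losses. Of these, 4 were covered on 0 mg FA, where 3 were called higher in 0P, against 1.10% of the 816 methylated sites compared there. At chromosome 1, position 40112418, the 1 such site whose groups lay apart, the nearest compared site, 110 bases away, was also higher in polyps, by 21.0 points.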
